A study of Mus musculus with 30 samples.

Results

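The cytosolic ribosomal protein genes were examined in hippocampal RNA from TIMP2 knockout (KO) and wild-type (WT) mice. Members were the protein-coding mouse genes whose symbol is Rpl or Rps followed by a number, with an a, x or l suffix allowed, together with Rplp0, Rplp1, Rplp2 and Rpsa. Ribosomal protein S6 kinases, pseudogenes and genes at the distal end of chromosome 11, the chromosome that carries Timp2, were left out, which removed Rpl38 (chr11:114668524-114672331, GRCm38) from the set. This gave 83 members of 49315 gene rows, of which 51 encode proteins of the large subunit and 32 proteins of the small subunit, and 80 members (48 large, 32 small) passed the filter on low counts. Bulk hippocampi of 30 C57BL/6J mice were sequenced, 1 library per mouse. Of these, 13 were TIMP2 KO, made up of 6 males with 7 females, and 17 were WT, made up of 10 males with 7 females. The KO allele was carried in all cells of the body, not in 1 cell type, and the WT mice were described as littermates. Neither group received a treatment named in the labels, and the age of the sequenced mice was not given there. TIMP2 is a secreted inhibitor of matrix metalloproteinases.

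Ribosomal proteins assemble with ribosomal RNA into the small subunit, which decodes the mRNA, and the large subunit, which joins the amino acids. Each protein is needed in nearly equal amounts, and in mammals most are made from 1 expressed gene with many silent processed copies elsewhere in the genome. A few have a second functional gene, usually marked by an l in its symbol, that is used in testis, in muscle or under stress. In neurons, ribosomes sit in the cell body and in dendrites, where local translation takes part in synaptic plasticity. Their mRNAs classically begin with a 5′ terminal oligopyrimidine (TOP) tract, a C at the cap followed by a run of C and T, through which mTORC1 and the RNA-binding protein LARP1 control translation more than mRNA level.

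The start sites are shown first because this tract is the sequence feature the mRNAs are best known for. RefSeq promoter windows (GRCm38.p6) were matched by symbol for 63 of the 83 members. A start counted as a tract when the first transcribed base was C and at least 4 further bases, each C or T, followed it on the transcript strand. The 63 members had 75 annotated starts, and a gene with several starts counted when any of them began a tract. By this rule 12 of 63 members had a tract (19.0%, exact binomial 95% interval 10.2% to 30.9%), against 2.97% of 26962 other genes. In each line below, 10 bases before the start are followed by the first 20 transcribed bases, and capitals mark the tract. Rps6 encodes the small-subunit protein phosphorylated by S6 kinase, Rpl28 is the member with the smallest p between the sexes, Rpl35a and Rps18 are among the members that followed the others most closely across mice, and Rpl15 has the longest tract (13 bases).
Rps6: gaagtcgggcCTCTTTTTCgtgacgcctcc
Rpl28: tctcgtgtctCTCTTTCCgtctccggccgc
Rpl35a: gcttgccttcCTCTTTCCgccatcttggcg
Rps18: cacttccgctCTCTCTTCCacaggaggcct
Rpl15: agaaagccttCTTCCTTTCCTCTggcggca
These windows lie at chr4:86857348-86857377 (minus strand), chr7:4792955-4792984 (plus), chr16:33056472-33056501 (plus), chr17:33955646-33955675 (minus) and chr14:18270967-18270996 (minus), in that order. The other tract holders were Rpl14, Rpl35, Rplp2, Rps10, Rps15a, Rps21 and Rps27. Rpl35a and Rps21 also have annotated starts without a tract.

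For contrast, 4 windows without a tract at the annotated start are given, with no capitals. Rpl27a and Rplp0 followed the other members closely across mice, whereas Rpl22l1 and Rps27l, both second copies of another member, followed them loosely.
Rpl27a: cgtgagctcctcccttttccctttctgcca
Rplp0: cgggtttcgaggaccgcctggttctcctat
Rpl22l1: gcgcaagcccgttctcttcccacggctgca
Rps27l: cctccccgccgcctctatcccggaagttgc
They lie at chr7:109519185-109519214, chr5:115559457-115559486, chr3:28805498-28805527 and chr9:66946076-66946105, all on the plus strand. The annotated start of Rpl27a falls on a T inside a pyrimidine run, and that of Rpl22l1 on a G directly before one. A shift of a few bases would change whether either counts. When the tract was allowed to begin up to 2 bases either side of an annotated start, 20 of 63 members (31.7%) and 10.5% of other genes had one, and with at least 6 pyrimidines after the C the shares were 14.3% and 1.26%. The absence of a match says only that these letters are not at this annotated start.

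Library sizes ranged from 18345517 to 41081083 counts, and the members took 1.38% to 1.63% of them. Timp2, the targeted gene, was at 130.0 to 171 counts-per-million (CPM) in KO mice and 256 to 380 CPM in WT mice, without overlap (log2 fold change −0.999 ± 0.053 SE, edgeR quasi-likelihood test, adjusted p = 7.62e-16). These counts cover the whole gene, including any exons the KO allele keeps. Excitatory neuron markers such as Camk2a (mean 4562 CPM in KO and 4673 CPM in WT) were high in both genotypes. Only 2 of 6 choroid plexus markers passed the filter, Ttr and Clic6, and both were higher in KO mice (Ttr mean 73.0 CPM against 6.07 CPM). The mean log2 CPM of that pair ran from −0.37 to 6.46 in KO mice and from −1.71 to 2.96 in WT mice, and its part in the results below was not tested, although its correlation with the mean member level was r = 0.053 over 30 mice (rho = 0.070).
For the member genes 3 libraries were set aside in some results. WT male mouse 6 had an uneven pattern, with some members far below and others far above all other mice, and KO male mice 14 and 15 had the highest and the lowest mean member level. Mouse 15 (mean log2 CPM 7.24) did not stand apart from the next lowest mouse, WT male mouse 2 (7.25). Results that rest on mice 6, 14 and 15 are given with and without them. Mice carry the numbers of the labels.

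Levels per length, in CPM per kb of merged exon, spanned 12.3 to 884 over the tested members, with a median of 85.3. Rplp1, which encodes an acidic protein of the stalk that recruits elongation factors, was highest at 884 CPM per kb. It was followed by Rps15 of the small-subunit head (467 CPM per kb), Rps3a1 of the small subunit (302), Rpl4, whose protein lines the peptide exit tunnel (285), and Rpl36 of the large subunit (253). In plain CPM, Rplp1 had a minimum, median and maximum of 417, 437 and 498 in KO mice and 409, 440 and 460 in WT mice, and the ranges of the genotypes overlapped throughout. The lowest tested members were Rps27l (12.3 CPM per kb), Rpl7l1 (13.1), Rpl18 (24.7), Rps19 (26.0), a gene mutated in Diamond-Blackfan anemia, and Rps15a (26.6). Merged exons count rare long transcripts in full, so a gene such as Rps15a with 6270 bases of merged exon received a low level per kb although its level in CPM was 168 in the median WT mouse. Large-subunit members had a median of 85.3 CPM per kb (13.1 to 884) and small-subunit members 91.4 CPM per kb (12.3 to 467).

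**Figure D1:**
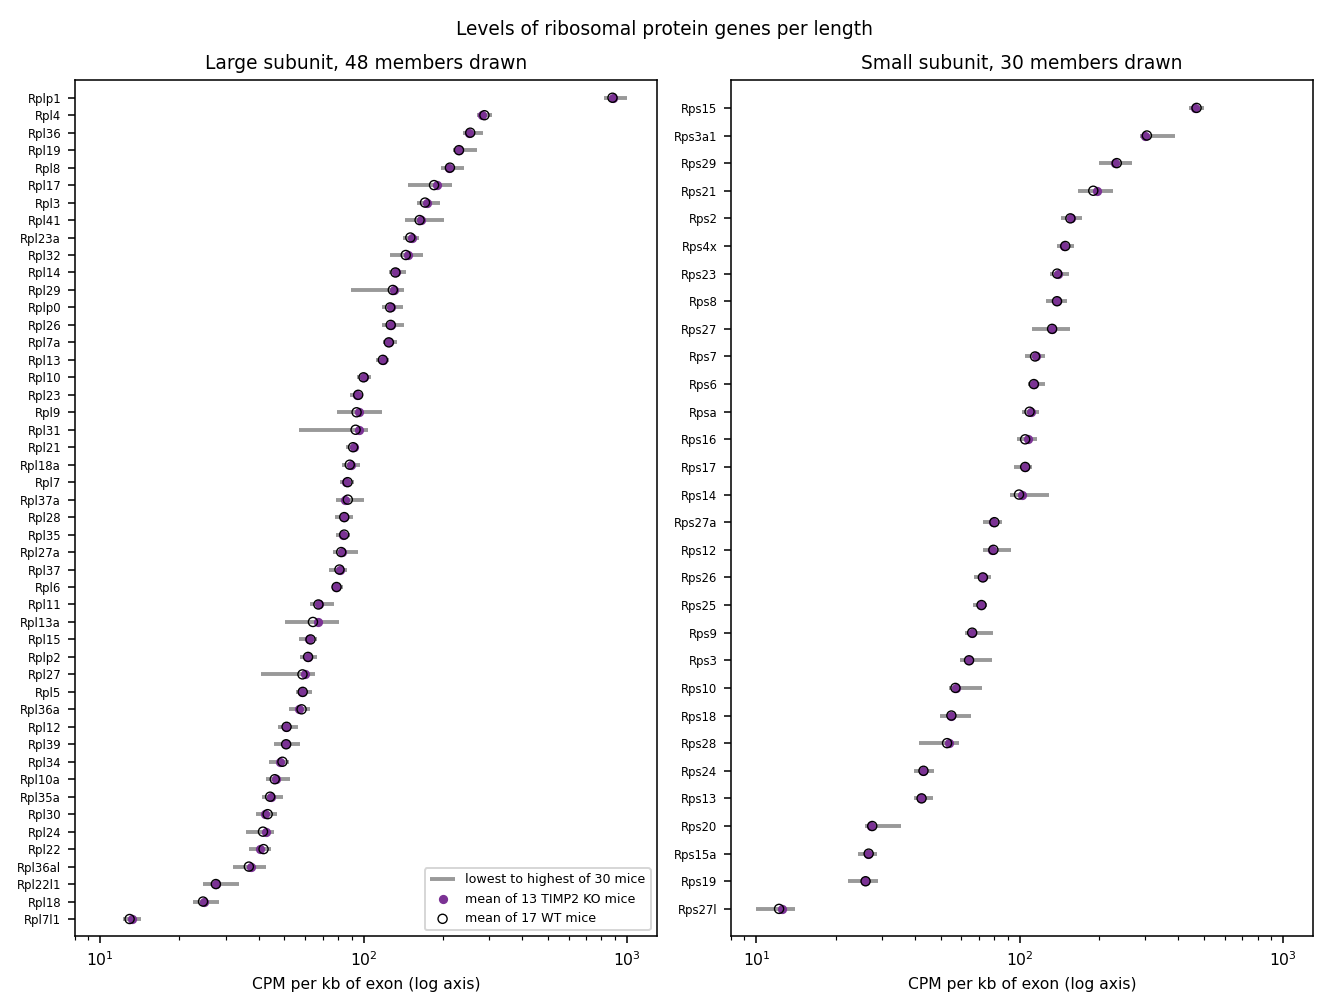
Levels of 78 tested members in CPM per kb of merged exon (log axis), large subunit on the left and small subunit on the right, with filled points for the mean of 13 TIMP2 KO mice, open points for the mean of 17 WT mice and bars from the lowest to the highest of 30 mice. Rplp1 (884) stands highest and Rps27l (12.3) lowest, and the 2 genotype means nearly coincide.

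Second gene copies were expressed at unequal fractions of their partners, all per kb. Rpl22l1 and Rpl36al were abundant, at 66.9% of Rpl22 (58.3% to 78.1% over the 30 mice) and 64.3% of Rpl36a (55.2% to 71.7%). Rpl7l1, the counterpart of the yeast assembly factor Rlp7, was at 15.1% of Rpl7 (13.7% to 17.1%), and Rps27l, a p53-induced copy, was at 9.30% of Rps27 (8.17% to 10.8%). The copies known from other tissues were nearly silent. Rpl3l, the form of heart and skeletal muscle, had 2 to 14 counts per mouse, which was 0.0881% of Rpl3. Rpl39l, a testis form, had 0 to 7 counts with 13 mice at 0 (0.110% of Rpl39), and Rpl10l, also a testis form, had 0 counts in all 30 mice. These 3 are the members that did not pass the filter.

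Genotype means of the fractions were close relative to the spread between mice. Rpl22l1 was at 68.3% ± 4.29 (SD, n = 13) of Rpl22 in KO mice and 65.9% ± 4.21 (SD, n = 17) in WT mice. Rpl36al was at 65.7% ± 3.59 of Rpl36a in KO mice and 63.2% ± 4.12 in WT mice, and Rpl7l1 at 15.4% ± 0.820 of Rpl7 in KO mice and 14.9% ± 0.848 in WT mice. For each of these pairs the genotype means differed by less than 1 SD of either group, which is the spread between mice and not the error of the difference. Each mean was higher in KO mice, also for Rps27l (9.44% ± 0.808 of Rps27 against 9.20% ± 0.579). The differences in these fractions were not tested. Across 30 mice, r was 0.426 for Rpl22l1 with Rpl22, 0.295 for Rpl36al with Rpl36a, 0.480 for Rps27l with Rps27 and −0.193 for Rpl7l1 with Rpl7. Without mouse 6 these were 0.336, 0.298, 0.276 and −0.143. The mean r of these copies with all other members was 0.279, 0.403, 0.159 and 0.243, in that order. Without mouse 6 it was 0.371, 0.529, 0.226 and 0.286. Over all pairs of members the mean r was 0.451, and 0.567 without mouse 6.

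To ask whether loss of TIMP2 changed the mRNAs of the translation machinery, KO was compared with WT in all mice. None of the 80 tested members passed an unadjusted p of 0.05 in the edgeR quasi-likelihood test, where 5.03% of the 16486 genes tested did. None passed after adjustment over all genes (0.0546% of genes did). DESeq2 and limma voom also called 0 members at an unadjusted p of 0.05, but their shares over all genes were not counted. The median log2 fold change of the members was 0.0037 (all genes 0.0001), and single members ran from −0.044 (Rpl22) to 0.066 (Rpl13a). In these counts from whole hippocampus, fewer cells of a type and less RNA per cell cannot be told apart. No member had KO and WT ranges that did not overlap, but the same count over all genes is not given here, so this does not set the members apart.

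Intervals were narrow for these genes. The 95% interval of the KO to WT difference lay within ±10% for 78 of 80 members and within ±15% for all 80, with outermost bounds of −6.14% (Rpl22) and 10.3% (Rpl13a). The median SD of a member within a genotype was 0.063 on the log2 scale, against 0.12 for all tested genes, and the SD that counting error alone gives was 0.022. The median absolute log2 fold change was 0.012 for members and 0.030 for all genes.

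Rpl22, an RNA-binding large-subunit protein, had the smallest p. It was at a minimum, median and maximum of 113, 116 and 128 CPM in KO mice and 107, 122 and 129 CPM in WT mice. The KO values lay inside the WT range, and the log2 fold change was −0.044 ± 0.023 (SE; 95% interval −0.091 to 0.0029; p = 0.0653, adjusted p = 0.994, edgeR). Its paralogue Rpl22l1, at 49.1, 54.4 and 61.1 CPM in KO mice and 48.9, 54.6 and 67.1 CPM in WT mice, overlapped fully.

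Rpl13a, whose protein also acts in the interferon-gamma GAIT complex, had the largest positive fold change. Its KO values had a minimum, median and maximum of 128, 142 and 170.3 CPM, and its WT values 107, 136 and 151 CPM. The lowest WT value was mouse 6, and 0.066 ± 0.037 (SE; 95% interval −0.0087 to 0.141; p = 0.0816, edgeR) was 0.048 ± 0.032 (p = 0.136) without that mouse. Rpl4 had a log2 fold change of −0.031 ± 0.019 (p = 0.112, edgeR), with medians of 557 CPM in KO and 579.8 CPM in WT mice. Rps6, often read as a phosphoprotein marker of mTORC1 activity, was at a median of 179 CPM in KO (172 to 194) and 178 CPM in WT mice (169.6 to 199). The log2 fold change of its mRNA was 0.0066 ± 0.020 (95% interval −0.034 to 0.047; p = 0.743, edgeR).

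**Figure D2:**
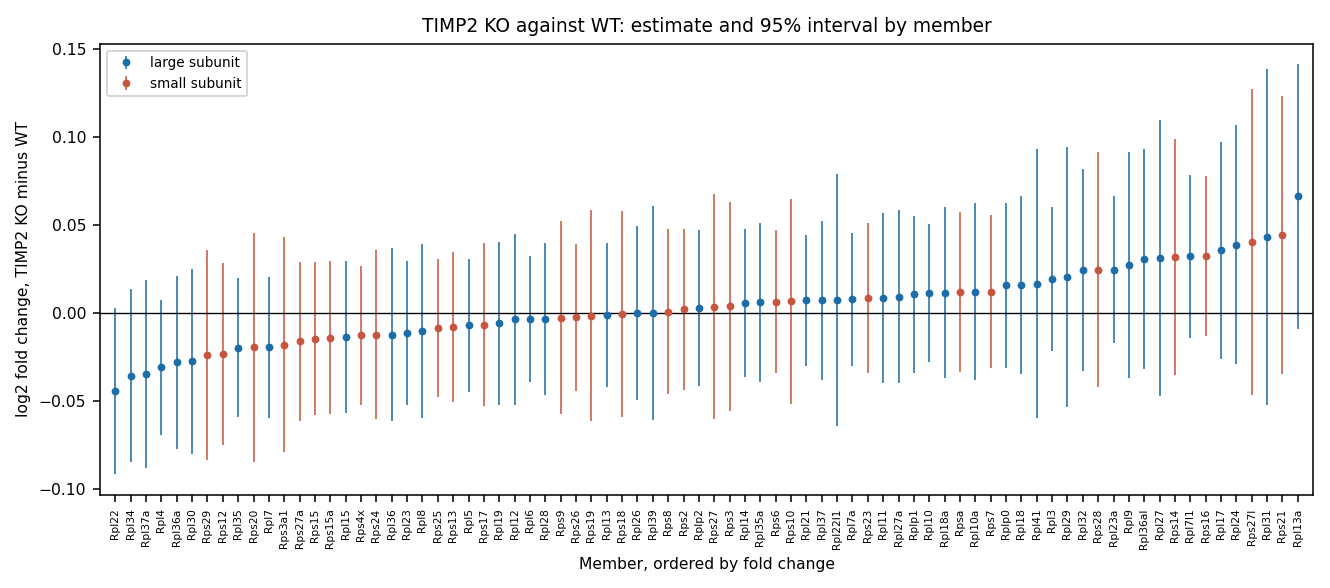
Log2 fold change (TIMP2 KO minus WT) of 78 tested members, ordered by value, with vertical lines for the 95% interval and colours for the subunit. The estimates lie between −0.044 (Rpl22) and 0.066 (Rpl13a), and all intervals drawn include 0.

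By subunit, 30 large-subunit members had positive and 18 negative fold changes (median 0.0073), and small-subunit members were split 16 and 16 (median 0.0003). Over all genes 8273 were positive and 8213 negative. Members whose start begins a tract had a median log2 fold change of 0.0034 (12 members) and those without one 0.0030 (48 tested members with a window). Without mouse 6 there were still 0 calls among 80 members (5.02% of genes called), the median was 0.0057 and the smallest p was 0.107. Without mice 6, 14 and 15, 1 member was called, Rpl23a (p = 0.0402, edgeR, higher in KO), where 5.43% of genes were.

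Within each sex the genotypes were compared separately. In females 0 of 80 members were called by edgeR (5.02% of genes), with a median log2 fold change of −0.0019. In males 1 of 80 was called, Rpl13a, higher in KO by 0.13 on the log2 scale (p = 0.0423, edgeR; 3.25% of genes were called, 1.61% as higher), and without mouse 6, a WT male, 0 of 80 were called (3.24% of genes; smallest p = 0.0631). The test of the difference itself, the interaction of sex and genotype, called 0 of 80 members at an unadjusted p of 0.05 in edgeR (2.57% of genes), and 0 without mouse 6 (2.67%). DESeq2 also called 0 members, but its share over all genes was not counted. Smallest p values in the edgeR fit of all mice belonged to Rpl36al (−0.10 ± 0.061 SE, p = 0.0941), Rpl13a (−0.12 ± 0.073, p = 0.106) and the large-subunit gene Rpl27 (−0.12 ± 0.077, p = 0.121), as the KO effect in females minus that in males on the log2 scale.

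Females and males were also compared over both genotypes. Of the 80 members, 1 was called, Rpl28, lower in females, where 9.77% of genes were called and 4.63% as lower. Rpl28, a large-subunit protein that budding yeast lacks, had a mean of 153 CPM in females and 157 CPM in males (−0.045 ± 0.020 SE, p = 0.0300, adjusted p = 0.447, edgeR). Its p rose above 0.05 when mouse 1, 4, 7, 14 or 23 was left out (0.0526 to 0.0661). Next came Rpl14 (−0.038 ± 0.020, p = 0.0603) and Rpl22l1 (−0.065 ± 0.034, p = 0.0616). Signs leaned one way, with 64 members lower and 16 higher in females (all genes 8136 lower and 8350 higher). The members followed each other across mice (mean pairwise r 0.451), so these signs are not independent. The median difference was −0.017 on the log2 scale (all genes 0.0007), and −0.0079 without mice 6, 14 and 15, where 1 member was called (9.49% of genes). The 4 members on the X chromosome had female minus male differences of 0.026 ± 0.019 (Rpl10, which joins the large subunit late in its maturation), 0.015 ± 0.030 (Rpl39, which lines the exit tunnel), −0.012 ± 0.025 (Rpl36a) and −0.0001 ± 0.020 (Rps4x), none past the threshold.

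Variation between mice was then described member by member. The widest spread of members around the median mouse was in WT male mouse 6. It held the lowest or highest value of all 30 mice for 32 of 80 members (40%), 18 below and 14 above, whereas it did so for 18.0% of all tested genes. That share was itself high. Over all tested genes KO male mouse 18 held 18.9%, and the remaining mice held 2.91% (mouse 25) to 9.35% (mouse 30). KO male mouse 14 held more extremes, 42 of 80, but all of them were highest values. The mean member level of mouse 6 lay in the middle of the range, since its gains and losses offset each other. The SD of the member values of mouse 6 around the median mouse was 0.212 on the log2 scale, against 0.031 to 0.086 in the other 29 mice.

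Members below the others in mouse 6 included Rpl31, which lies near the tunnel exit: 94.9 CPM against 146 to 173 CPM (median 158) in the other 29 mice, or 40.0% under the median. Rpl29, a heparin-binding large-subunit protein, was at 100.5 CPM against 139.7 to 159.7 CPM. Rpl27 was at 62.9 CPM against 81.7 to 100.4 CPM. No other mouse of either genotype came near these values.
Members above the others included Rps3a1 at 379.7 CPM against 279 to 315 CPM and Rps20, whose protein is ubiquitinated on collided ribosomes, at 145 CPM against 106 to 120.2 CPM. Rpl22l1 was at 67.1 CPM against 48.9 to 61.1 CPM, and Rps9 of the small subunit at 199 CPM against 156 to 179 CPM. Both subunits were found on both sides, with 9 large and 9 small members below and 6 large and 8 small members above. The deviation of a member in mouse 6 had rank correlations across the 80 members of −0.071 with the share of its sequence that other genes share, −0.14 with GC content and 0.16 with merged exon length. Mitochondrially encoded genes took 2.22% of the counts of mouse 6, against 3.48% to 4.17% in the other mice, its total of 22427100 counts lay within the range of the others, and the part of these measures in its pattern was not tested.

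**Figure D3:**
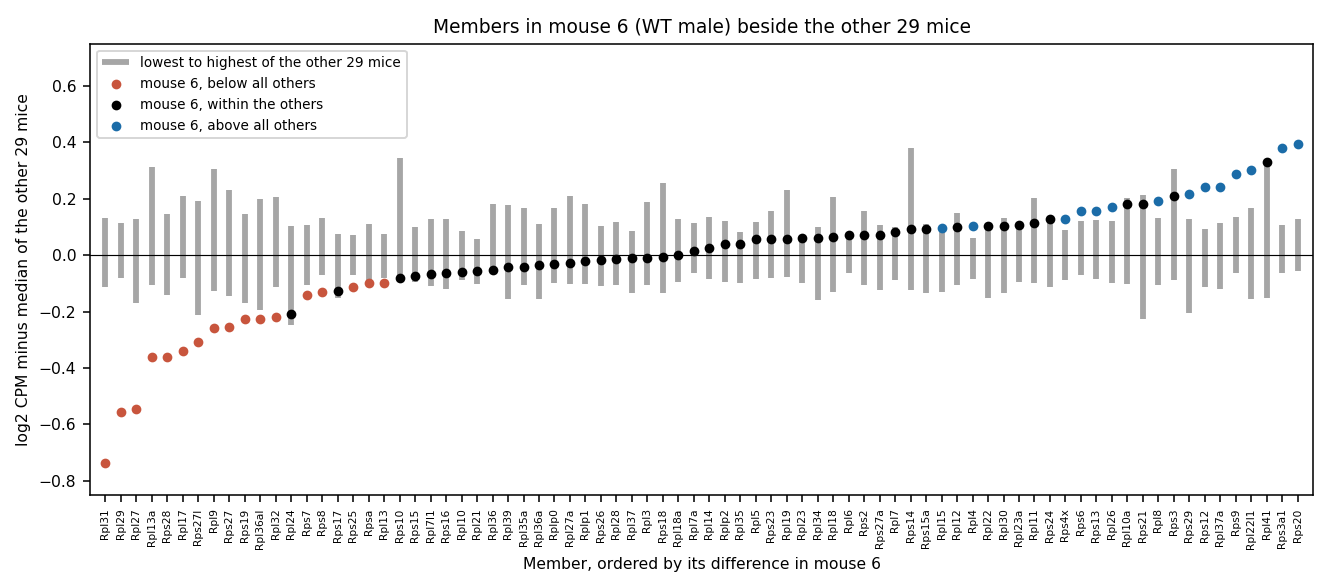
Log2 CPM of 78 tested members in WT male mouse 6 minus the median of the other 29 mice, ordered by that difference, with bars for the range of the other 29 mice and colours for values below, within or above it. Mouse 6 lies far below the range for members such as Rpl31 (94.9 CPM against 146 to 173) and far above it for members such as Rps20 (145 against 106 to 120.2).

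In a principal component analysis of the members, the first component held 42.1% of the variance and tracked the mean member level (r = 0.986 across mice), and it held 58.1% once mouse 6 was left out. The second held 28.5% and separated mouse 6 (score 1.77) from all other mice (−0.20 to 0.18). For members low in mouse 6, the log2 fold change between genotypes went from 0.043 ± 0.047 with it to 0.0098 ± 0.024 without it for Rpl31 and from 0.020 ± 0.036 to −0.0061 ± 0.018 for Rpl29, and neither passed the threshold either way.

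The mean member level, the average log2 CPM of the 80 tested members in a mouse, varied from 7.24 in KO male mouse 15 to 7.44 in KO male mouse 14, a span of 15.2%. Mouse 14 had 76 of 80 members above their own median and, beside its 42 highest values among members, held an extreme value for 8.31% of all genes. Mouse 15 had 3 of 80 members above their own median. Without this pair of mice the span was 9.55%. The mean was 7.32 ± 0.055 (SD, n = 13) in KO and 7.31 ± 0.036 (SD, n = 17) in WT mice, a difference of 0.0043 against an SD of 0.046 within genotype. By sex the means were 7.33 ± 0.072 in KO males, 7.31 ± 0.039 in KO females, 7.31 ± 0.042 in WT males and 7.31 ± 0.030 in WT females, with overlapping ranges.

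**Figure D4:**
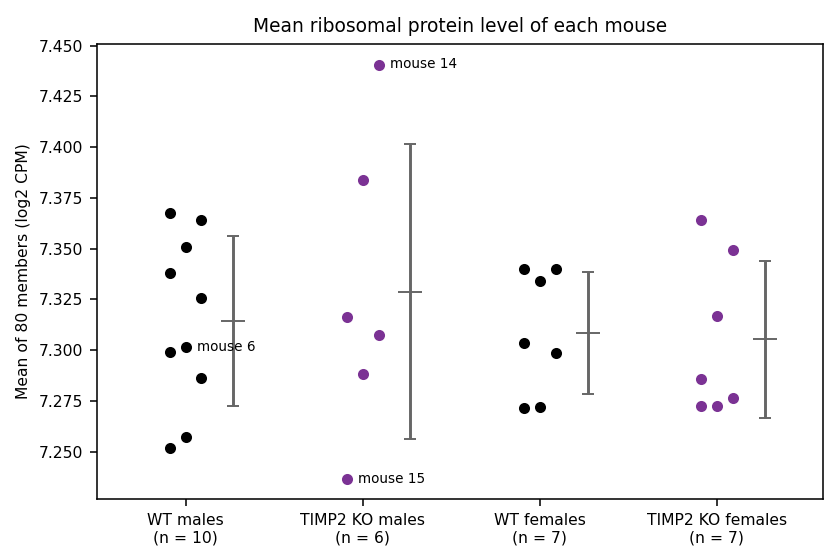
Mean log2 CPM of the 80 tested members in each mouse (points), by genotype and sex, with lines for the group mean ± SD; the axis does not start at 0. The 4 groups overlap, with KO male mouse 14 (7.44) highest and KO male mouse 15 (7.24) lowest.

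The 2 subunits rose and fell together, with r = 0.962 between the mean of the 48 large-subunit and the mean of the 32 small-subunit members over 30 mice (rho = 0.941, 0.976 within KO and 0.940 within WT mice, 0.946 without the 2 mice farthest from the median). The mean member level had r = 0.258 with log2 total counts (rho = 0.228; 0.337 without the 2 farthest mice). All correlations here are descriptions over mice that share a normalization, and both measures of a pair come from the same libraries.

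Single members followed each other as well. Over the 3160 pairs of members the mean r was 0.451 (median 0.501), and 50.3% of pairs were above 0.5, whereas the mean over pairs of all tested genes was 0.0005. Mouse 6 lowered this: without it the mean r was 0.567, 69.7% of pairs were above 0.5, and 11 pairs rather than 217 were below 0. Mice 14 and 15 raised it: without mice 6, 14 and 15 the mean r was 0.507. Within genotypes it was 0.636 over the 13 KO mice and 0.342 over the 17 WT mice, but 0.540 without mice 14 and 15 and 0.513 without mouse 6. Males (0.462) and females (0.465) had similar means.

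Some of the strongest pairs rested on mouse 6. Rpl29 and Rpl31, both low in it, had r = 0.916, and 0.451 without it. Rpl29 with Rps20, low and high in it, had the lowest r (−0.704, and 0.205 without it), and Rpl31 with Rps3a1 went from −0.643 to 0.622. Without mouse 6 the highest r belonged to the large-subunit genes Rpl27a and Rpl9 (0.898) and the lowest to Rpl15 and Rpl30 (−0.328).

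**Figure D5:**
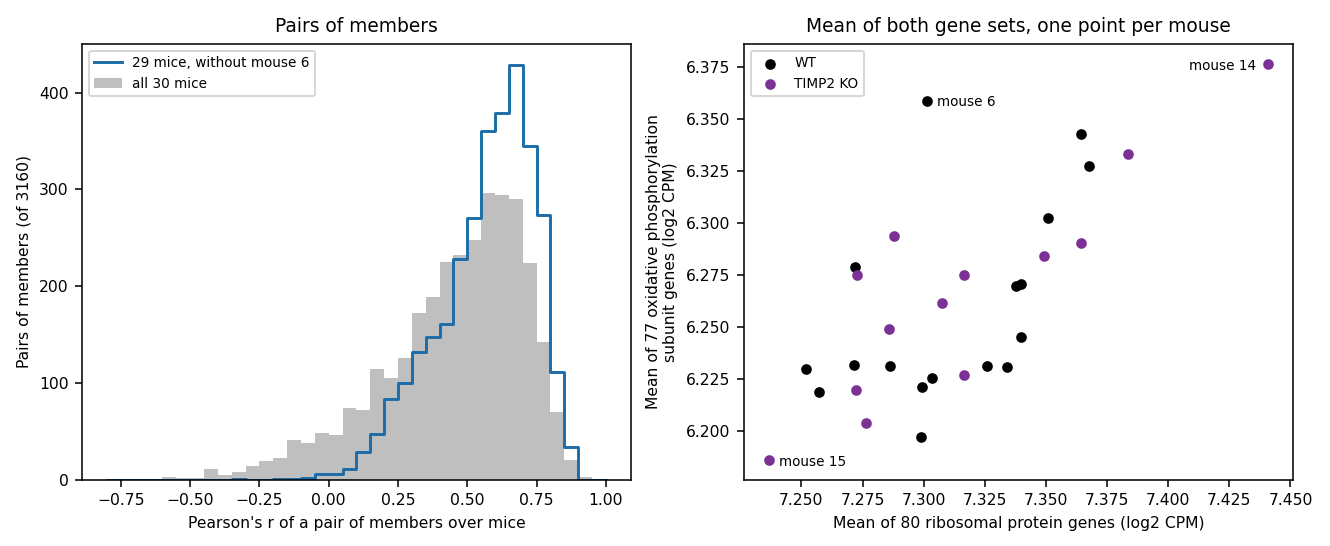
Left, number of member pairs by Pearson r over all 30 mice (grey) and without mouse 6 (line); right, the mean log2 CPM of 77 oxidative phosphorylation subunit genes against that of the 80 members, 1 point per mouse. Leaving out mouse 6 moves the mean pairwise r from 0.451 to 0.567, and the means on the right rise together (r = 0.709), with mouse 6 above the other mice of its member level.

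The members that followed the rest most closely were Rpl27a (mean r with the other members 0.628), the stalk gene Rplp1 (0.605), Rps18 (0.585), Rpl35a (0.583) and Rplp0, which anchors the stalk (0.574). Each stayed high without mouse 6 (0.654 to 0.708). Those that followed least over all 30 mice were Rpl29 (0.102), Rps27l (0.159), Rpl31 (0.210), Rpl27 (0.212) and Rpl7l1 (0.243). Of these, Rpl31 rose to 0.661 without mouse 6, whereas Rps27l (0.226) and Rpl7l1 (0.286) became the lowest of all, followed by Rpl30 (0.331), Rpl15 (0.345) and Rpl22l1 (0.371). Among these, Rps27l, Rpl7l1 and Rpl22l1, are copies of another member, and Rps27l and Rpl7l1 also had the lowest levels per kb, with a counting SD of 0.086 in a within-genotype SD of 0.11 for Rps27l and of 0.041 in 0.056 for Rpl7l1 (log2 scale). The tract members had a median mean r of 0.579 without mouse 6 and the others 0.598.

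Outside the set, 290 of 16406 genes (1.77%) had r above 0.5 with the mean member level. The most alike protein-coding genes were Ubxn1, an adaptor of the ATPase p97 (r = 0.794 over 30 mice, 0.826 without mouse 6), Rack1, a scaffold on the small subunit (0.792 and 0.836), Ndufa6 of respiratory complex I (0.786 and 0.785), and Smdt1 of the mitochondrial calcium uniporter (0.771 and 0.779). Next were 1110008P14Rik (0.761), Rpl38 (0.760), the import chaperone Timm8b (0.757), Edf1, which binds collided ribosomes (0.755), the TOP mRNA Tpt1 (0.747) and the peroxiredoxin Prdx5 (0.742). Rpl38, a ribosomal protein gene that the position rule had left out, was thus among the genes most like the members. The likeness also went with gene length: over 14352 other protein-coding genes r fell with merged exon length (rho = −0.462 across genes), from a median of 0.234 up to 1 kb (254 genes) to −0.198 over 8 kb (2657 genes). Members had a median merged exon length of 1806 bases and the other protein-coding genes 4535 bases, and the part of length in the covariation was not tested.

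Other sets of the translation and energy machinery were set beside the members. Genes of elongation and other TOP mRNAs (15 tested) had a mean level with r = 0.678 to the mean member level (rho = 0.771; 0.775 within KO, 0.550 within WT, 0.764 without mouse 6), and 0 of 15 were called between genotypes. Nuclear oxidative phosphorylation subunits (77 tested) had r = 0.709 (rho = 0.653; 0.871 within KO, 0.525 within WT, 0.785 without mouse 6) and mitochondrial ribosomal proteins (78 tested) r = 0.646 (rho = 0.584; 0.757 and 0.447). Proteasome subunits (38 tested) had r = 0.340 in all mice, 0.698 within KO and 0.0085 within WT mice. Without the 2 mice farthest from the median (14 and 1), r over the remaining mice was 0.671, 0.576, 0.458 and 0.109, in the order given. Without mice 14 and 15 it was 0.690, 0.578, 0.484 and 0.160. Within KO mice, r without mice 14 and 15 was 0.87, 0.70, 0.55 and 0.47, in the same order. Within WT mice, r without mouse 6 was 0.75, 0.67, 0.53 and 0.047. The genotypes were thus closer without these mice, except for the proteasome subunits, where r stayed higher within KO. The difference in r between genotypes was not tested. The mean pairwise r within each set was 0.238, 0.372, 0.175 and 0.350, against 0.451 for the members.
Sets that make ribosomes rather than form them followed the members less, with r = 0.277 for ribosome biogenesis factors (40 genes; 0.505 within KO, −0.071 within WT and 0.085 without the 2 farthest mice), −0.082 for RNA polymerase I and rRNA synthesis (14) and −0.17 for mTOR and TOP regulators (22). Of these last 3 sets none was called by edgeR between genotypes at an unadjusted p of 0.05, and neither Fau nor Rack1, ribosomal proteins with other symbols, was called. Calls were 2 of 78 mitochondrial ribosomal genes, both higher in KO (Mrps36, 0.097 ± 0.044, p = 0.0331; Mrpl2, 0.062 ± 0.030, p = 0.0477, edgeR), 2 of 77 oxidative phosphorylation genes (Ndufa10 and Cox6b2, both higher) and 2 of 38 proteasome genes (Psmc5 and Psmd7, both higher). None of these passed after adjustment.
Among cell type markers, r over 30 mice ran from −0.12 (astrocyte, 6 genes) to 0.14 (GABAergic interneuron, 6 genes) for the neuron, glial, choroid plexus and red blood cell lists. Of these, the microglia list (6 genes) had r = 0.135 over 30 mice, 0.496 within WT, −0.083 within KO and 0.40 without the 2 farthest mice. The endothelial list (5 genes) had r = 0.440 over 30 mice, 0.670 within WT, 0.326 within KO and 0.547 without the 2 farthest mice, and the part of either list in the member levels was not tested. Of the endothelial genes 1, Slco1a4, was lower in KO (−0.10 ± 0.042, p = 0.0174, edgeR). Of the other marker lists, Prox1 and Dsp (2 of 7 neuron genes) were lower and Gfap (1 of 6 astrocyte genes) higher in KO, and no interneuron, oligodendrocyte, microglia or red blood cell marker was called.

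Read assignment limits single members. A median of 23.3% of the 100-base windows of a member's transcripts also occurs in transcripts of other genes, mostly processed pseudogenes. The share was over 50% for 16 of the 80 tested members, up to 83.6% for Rpl36a and Rps6, and 0 for 5 members, among them Rpl22, Rps21, Rps27l and Rps3. It was unequal within paralogue pairs, at 18.4% for Rpl36al against 83.6% for Rpl36a and 34.3% for Rpl22l1 against 0 for Rpl22. The part of this in the fractions per kb given above was not tested. Rows of ribosomal protein pseudogenes held 0.207% to 0.259% as many counts as the members. The exons of 13 tested members overlap a coding gene on the opposite strand, such as Rpl31 with Tbc1d8, and since the strand setting of the counting was not given, reads of such pairs cannot be told apart.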

How the data were processed

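RNA-seq counts of 30 hippocampal libraries were analysed. Reads had been trimmed (Trimmomatic 0.36), aligned to GRCm38 (STAR 2.5.2b) and counted per gene (featureCounts of Subread 1.5.2), per the submitters' processing notes, and the authors deposited these raw counts, which carry no normalization. The strand setting and the treatment of multi-mapped reads are not given in the sources used here. Each library is a separate mouse, and genotype and sex came from the labels. The study treated the date of isolation or harvest as a significant batch effect and adjusted for it in its co-expression network. That date is not in the labels and was not modelled here, and its part in the differences between mice was not tested.

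The 49315 gene rows were matched by identifier to GENCODE M21 (49056 matched, 259 not) for class, position and merged exon length. Genes passed edgeR's default filter, were scaled by TMM and tested with the edgeR quasi-likelihood test (edgeR 4.0.16, R 4.3.3) on all mice with no covariate. A call was an unadjusted p under 0.05, the threshold of the study, and Benjamini-Hochberg values were adjusted over all genes tested. An SE was derived from the fold change and its F statistic. Correlations used log2 CPM with a prior count of 2. Alternatives included DESeq2 1.42.0, limma 3.58.1 with voom and sample weights, other size factors, filters and covariates, single sexes and the omission of each mouse. The script was tested on simulated data. RefSeq windows covered 250 bases before each start.

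Members named are those called, the 3 smallest p for sex and interaction, the 5 highest and lowest by level and by mean correlation, untested members, paralogue pairs, X-linked members and Rps6. In the lists, the called genes and the 10 genes most like the members were named, along with a few others chosen after their values were seen (Rpl22, Rpl13a, Rpl4, Rpl23a, the members that stand apart in mouse 6, members of extreme pairs, and those whose start sequences are shown). Mouse 6 and mice 14 and 15 were also set aside after the data were seen. The members and lists were chosen with earlier results of these data known. A few members and list genes are not reported here by name, although they enter the counts and means.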

Additional observations from a re-analysis of the deposited data

Results flagged for a closer look

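In each group of genotype and sex (6 to 10 mice), the gap between the most extreme mouse and its nearest neighbour was divided by the range of the group and compared with Dixon's 95% critical value. Of 148 groups examined (37 measures in 4 groups), 12 passed (chance alone passes about 1 in 20 groups). WT male mouse 6 accounted for 8 of the 12, but 7 of those 8 are members that were also picked for standing furthest from the other mice in mouse 6, so the count cannot be read against chance. It was low for Rpl31 (ratio 0.76, 94.9 CPM against 150.0 in the next mouse), Rpl29 (0.756, 100.5 against 140.3), Rpl27 (0.707, 62.9 against 86.5) and Rpl13a (0.503, 107 against 127). It was high for Rps3a1 (0.768, 379.7 against 304), Rps20 (0.671, 145 against 118), Rpl22l1 (0.641, 67.1 against 57.3) and Rps6 (0.532, 199 against 183).

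The other 4 were single values in other mice. WT female mouse 16 was high for Rps20 (ratio 0.704, 118 CPM against 110.5), KO male mouse 14 for Rpl3, whose protein lies near the peptidyl transferase centre (0.695, 621 against 562), KO female mouse 3 for Rpl36 (0.627, 102 against 96.1) and KO female mouse 11 for Rpl22 (0.57, 125 against 118).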

How the results depend on the processing

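The count of 0 members called between genotypes became 1 in males alone (Rpl13a) and without mice 6, 14 and 15 (Rpl23a), an omission chosen after seeing the data, and was 0 to 1 when each mouse was left out. Rpl22 was the call without mouse 1, 11, 14 or 28 (p = 0.0148 to 0.0476, edgeR), and Rpl13a without mouse 9 or 15 (p = 0.0435 and 0.0412). After adjustment it was 0 in all of these fits, and the median fold change stayed between −0.0094 and 0.010 on the log2 scale when each mouse was left out. The 1 member called between the sexes became 2 in DESeq2 (Rpl28 and Rpl14) and 0 to 4 when each mouse was left out. In the main fit 9.77% of all genes were called between the sexes and 5.03% between genotypes. Outside the edgeR fits whose shares are given above, shares over all genes were not counted. The mean pairwise r of 0.451 was 0.636 in KO mice alone and 0.402 (without mouse 14) to 0.567 (without mouse 6) when each mouse was left out. The range of the mean member level, 0.204 on the log2 scale, was 0.116 in WT mice alone, 0.132 without mice 6, 14 and 15, and 0.147 (without mouse 14) to 0.204 when each mouse was left out. The tract share of 19.0% was 31.7% with a start allowed within 2 bases. The cause of these changes was not tested. No paired analysis was possible because replicate numbers were given in accession order and do not tie a KO mouse to a WT mouse. Size factors, filters and covariates changed no call. Low counts kept the untested members from passing the filter, and counting error adds to the spread of the lowest tested ones, Rps27l and Rpl7l1.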
